A study of Mus musculus with 3 samples.

Results

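The 36 genes described here encode SR proteins, heterogeneous nuclear ribonucleoproteins (hnRNPs) and related regulators of splicing. They were chosen as a list of gene symbols, and each symbol matched 1 gene identifier among the 55536 in the gene tables. The list holds 10 SR genes (Srsf1 to Srsf7, Srsf9, Srsf10 and Srsf11), the 2 TRA2 genes, 17 hnRNP genes, the 2 PTB genes Ptbp1 and Ptbp3, the 2 DBHS genes Sfpq and Nono, and Ewsr1, Taf15 and Tardbp. Together they have 370 annotated transcripts, of which 171 are protein-coding, 88 are of the retained-intron class, 52 are marked for nonsense-mediated decay and 59 are processed transcripts, a class with no coding frame.

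RNA of the chromatin fraction was sequenced after ribosomal RNA had been depleted, so transcripts still at their genes are measured beside finished ones. The cells were bone-marrow-derived macrophages, which are grown from the marrow of C57BL/6J mice. They had been given Lipid A, the part of bacterial lipopolysaccharide that TLR4 binds, at 100 ng/ml for 12 h, were then kept without it for 12 h, and received 100 ng/ml again for 10 min. The 3 libraries, called replicates 1, 2 and 3, all belong to this 1 condition, were made from 1 µg, 250 ng and 500 ng of RNA, and share a donor identifier while having separate biosample entries. No comparison of conditions was possible, and the spread given below is that between these libraries, which may be partly technical. Library, RNA input and any handling difference cannot be told apart.

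SR proteins carry an arginine- and serine-rich tail and bind exons, where they recruit the splicing machinery to nearby splice sites. The hnRNPs coat nascent transcripts and often oppose the use of splice sites. Many genes of both families control their own output by splicing: they include an exon with a premature stop, or keep an intron, and the resulting RNA is held in the nucleus or destroyed by nonsense-mediated decay.

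The early stops of such transcripts are shown first, because several results below turn on them. Each line gives the last 30 coding bases of a transcript marked for decay, 5′ to 3′, with the stop codon in capitals, and the exon that holds the stop (mm10 coordinates, GENCODE M21 transcript names and sequences). In the first 7 that exon is in no protein-coding transcript of the gene, and in Srsf6 the only coding model that has the stop was listed at 0 TPM.
Tra2a-202, chr6:49252803-49253108, minus strand: aaaaaattgaacagaagattggtcagaTAG
Tra2b-206, chr16:22258986-22259261, minus strand: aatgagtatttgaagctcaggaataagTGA
Srsf3-201, chr17:29039454-29039909, plus strand: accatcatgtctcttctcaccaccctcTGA
Srsf4-204, chr4:131884295-131884482, plus strand: gtaacccggttgtctcatgccccagctTAG
Srsf7-203, chr17:80204622-80205081, minus strand: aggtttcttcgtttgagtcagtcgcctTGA
Hnrnpl-213, chr7:28817335-28817404, plus strand: tctttcagaactgtgctaactcactgtTGA
Hnrnpll-203, chr17:80044940-80045022, minus strand: ctgaaacttcttgaaagaagcccacttTGA
Srsf6-201, chr2:162932815-162933082, plus strand: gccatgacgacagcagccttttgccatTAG
Hnrnpa1-203, chr15:103243959-103244028, plus strand: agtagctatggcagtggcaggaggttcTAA
The last line differs from the others: its stop is the normal one, which Hnrnpa1-203 shares with the reference coding transcript, and the decay mark rests on 2 splice junctions that follow it.

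The second set of sequences shows introns that annotated transcripts keep. Kept here describes the annotated transcript and does not tell a retained intron from one not yet spliced. Each line starts with the last 10 bases of an exon in lower case and goes on with the first 20 bases of the intron in capitals. The introns of the first 6 lines are among the 7 for which transcripts that keep the intron held most TPM relative to those that splice out exactly this intron. Hnrnph1 intron 6, kept by the same transcripts as its intron 5, is not shown. The last 4 lines are the 4 with the lowest kept shares.
Hnrnph1 intron 5, chr11:50379965-50381458, plus strand: ttcttctcagGTATGTAGTCCTGTTTGTTG
Srsf7 intron 3, chr17:80204388-80205261, minus strand: gaagaagcagGTATTTAATTAATGAAGGAA
Srsf3 intron 3, chr17:29038625-29040774, plus strand: ctcggcgcagGTACTTGAGAGAGCACCTTT
Srsf5 intron 5, chr12:80947866-80949094, plus strand: cagctggcagGTTTGTTGAAATACAGTTTT
Hnrnph3 intron 4, chr10:63017611-63018040, minus strand: tatgatggtgGTATGTGTGTCTAATGAACA
Ewsr1 intron 9, chr11:5078953-5079484, minus strand: aagcctggtgGTAAGTTTTTGAGTATTACC
Srsf5 intron 4, chr12:80947595-80947795, plus strand: atgatagacgGTATGTGGTTTGGGTTTGGC
Srsf5 intron 2, chr12:80946721-80947310, plus strand: tggttttgtgGTAAGTACTTGAAACTGAGT
Srsf5 intron 7, chr12:80949605-80949719, plus strand: aaaggcacagGTACTCTTTCGTTTATATTT
Hnrnpl intron 12, chr7:28821274-28821391, plus strand: tcaggcaaaaGTGAGTCAGACACCACTTCC
Introns are numbered along the reference coding transcript, which is the coding model that the other transcripts of the gene were compared with. A short intron can be shown whole, with its first 6 and last 3 bases in capitals: intron 5 of Hnrnpa2b1 is an intron of 80 bases, kept in a transcript at 67.3 ± 3.34 TPM (SD, n = 3).
Hnrnpa2b1 intron 5, chr6:51466223-51466302, minus strand: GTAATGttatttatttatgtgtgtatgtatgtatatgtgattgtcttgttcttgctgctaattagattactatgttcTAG

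All 36 genes were detected, which means that no library had them below a TPM of 1. TPM scales the reads of a gene by its length and by the library total, so levels of different genes can be set side by side. Over all 22028 protein-coding genes 45.6% were detected by the same rule. The median of log2(TPM + 0.1) over the 36 genes was 6.44, 6.39 and 6.36 in replicates 1, 2 and 3, which is 6.40 ± 0.04 (SD, n = 3). The same median was -0.43 ± 0.13 over all protein-coding genes and 3.60 ± 0.11 over the detected ones. The genes held 0.561% ± 0.0157 (SD, n = 3) of all TPM and 1.91% ± 0.0751 of the TPM of protein-coding genes.

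**Figure D1:**
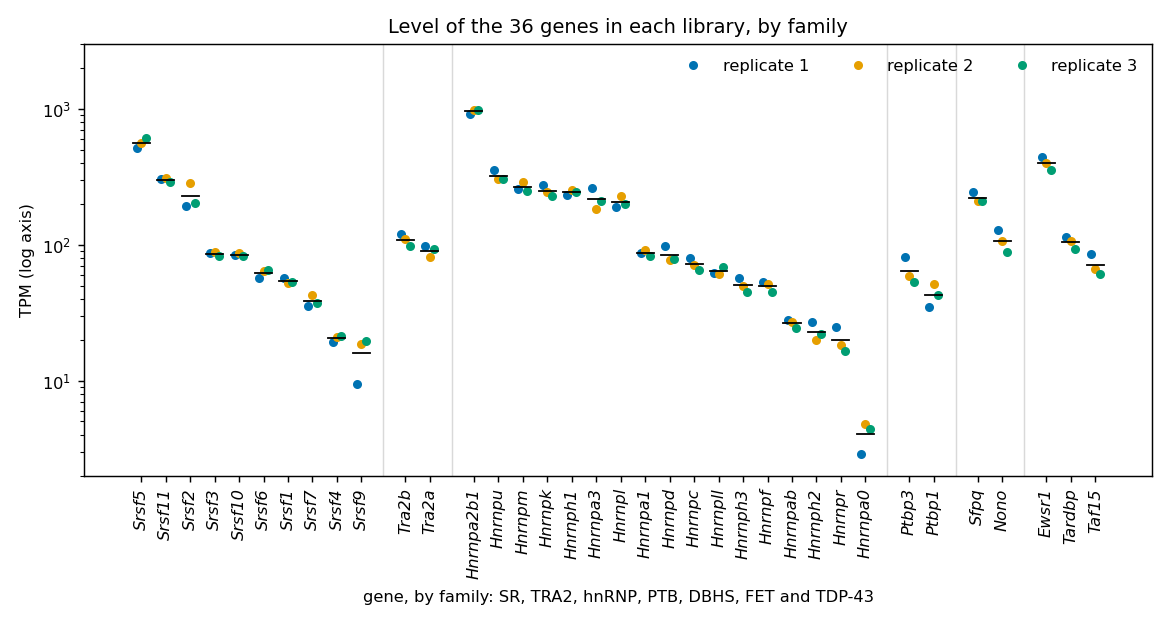
TPM (log axis) of each of the 36 genes in replicates 1, 2 and 3 (coloured points) with their mean (black bar), ordered within each family by mean. Levels run from 4.03 TPM for Hnrnpa0 to 963 TPM for Hnrnpa2b1, and replicate 1 of Srsf9 lies below the other 2 libraries.

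Among the SR genes, Srsf5 was the most abundant. Srsf5 measured 518, 557 and 613 TPM in replicates 1, 2 and 3 (563 ± 48.1, SD, n = 3). Srsf11, which encodes an SR-related protein of nuclear speckles, followed with 304, 310 and 289 TPM (301 ± 10.4). The ranges of these libraries did not overlap. Srsf2 encodes SC35, the classical marker of nuclear speckles, and was at 194, 285 and 204 TPM (228 ± 50). Replicate 2 stood above the other libraries for Srsf2, and its CV of 21.9% was the second largest of the SR genes.

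The remaining SR genes were lower. Srsf3, Srsf10, Srsf6, Srsf1 and Srsf7 had means between 38.3 and 86.0 TPM. Srsf4, which encodes the largest of the classical SR proteins, was at 19.3, 20.8 and 21.3 TPM (20.5 ± 1.05). Srsf9 had the lowest mean of the SR genes, at 9.49, 18.7 and 19.7 TPM (15.9 ± 5.61). Its replicate 1 value rested on 126 expected counts and lay below the other libraries, and its CV of 35.2% was the largest of the 36 genes. The TRA2 genes encode SR-like activators that bind purine-rich enhancers. Tra2b measured 109 ± 10.5 TPM and Tra2a 90.4 ± 9.05 TPM, and the ranges of the 2 genes overlapped narrowly.

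Hnrnpa2b1, whose protein packages nascent RNA and sorts messages for transport, had the highest level of all 36 genes. It measured 915, 986 and 986 TPM (963 ± 40.9) and ranked 9 among protein-coding genes by mean TPM. Its relatives of the A/B type were all lower. Hnrnpa3 was at 261, 182 and 209 TPM (217 ± 40.1), a level that is uncertain because of expressed pseudogene copies described below and was 136 TPM by estimation straight from the reads, and Hnrnpa1 at 86.6, 91.4 and 82.6 TPM (86.9 ± 4.37), with no overlap between them. Hnrnpd, also called AUF1 for its binding of AU-rich elements, was at 84.7 ± 11.2 TPM, indistinguishable from Hnrnpa1 by these ranges. Hnrnpab was at 26.5 ± 1.96 TPM. Hnrnpa0, a gene without introns in this annotation, was the lowest of the 36 at 2.90, 4.77 and 4.43 TPM (4.03 ± 0.996), from 95 expected counts in replicate 1.

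Hnrnpu encodes scaffold attachment factor A, which binds chromatin and RNA. It measured 354, 304 and 306 TPM (322 ± 28.6). Hnrnpm, whose protein restrains splicing of some innate immune transcripts in macrophages, was at 258, 290 and 248 TPM (265 ± 21.8). The poly(C)-binding Hnrnpk was at 275, 244 and 228 TPM (249 ± 24.2), and Hnrnph1, whose protein binds runs of G, at 234, 254 and 243 TPM (244 ± 10.3). The ranges of Hnrnpm, Hnrnpk and Hnrnph1 overlapped, so their order is not resolved. Hnrnpl, which binds CA repeats, was at 206 ± 21.4 TPM and its relative Hnrnpll at 63.7 ± 4.11 TPM. Hnrnpc, Hnrnph3, Hnrnpf and Hnrnph2 ranged from 22.9 to 72.2 TPM by mean. Hnrnpr was among the 4 lowest, at 24.8, 18.4 and 16.6 TPM (19.9 ± 4.32), highest in replicate 1.

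Outside these families, Ewsr1 was highest. Ewsr1 encodes an RNA-binding protein of the FET family and measured 441, 401 and 357 TPM (400 ± 42.1). Taf15, of the same family, was at 70.8 ± 12.6 TPM, and Tardbp, which encodes TDP-43, a repressor of cryptic exons, at 104 ± 10.9 TPM. The paraspeckle genes Sfpq and Nono were at 222 ± 20.6 and 107 ± 20.1 TPM. The polypyrimidine tract binding genes Ptbp1 and Ptbp3 were at 43.0 ± 8.31 and 64.3 ± 14.7 TPM. The authors' second set of tables, estimated straight from the reads and called read-based here, gave 130 TPM for Ptbp3, 2.02 times the value of the gene table, and 71.0 TPM for Ptbp1, 1.65 times its value. Of the 36 genes, Ptbp3 was the only one with a ratio over 2.

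The TPM of the 36 genes lay mostly outside the coding class. Of their sum 32.3% ± 0.777 (SD, n = 3) lay in protein-coding transcripts, 41.4% ± 0.875 in retained-intron transcripts, 6.49% ± 0.279 in transcripts marked for decay and 19.9% ± 0.164 in processed transcripts. In all 10040 detected protein-coding genes with transcript values the same shares were 49.5%, 37.2%, 4.28% and 8.97%. The coding share of the 36 genes was 33.0%, 31.5% and 32.3% in replicates 1, 2 and 3, below the lowest library of the detected genes, 48.8%. The median number of annotated transcripts was 9 for these genes and 5 for the detected genes, a difference whose part in the shares was not tested. When only coding transcripts were summed, the median log2(TPM + 0.1) of the 36 genes was 4.90, in place of 6.40.

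**Figure D2:**
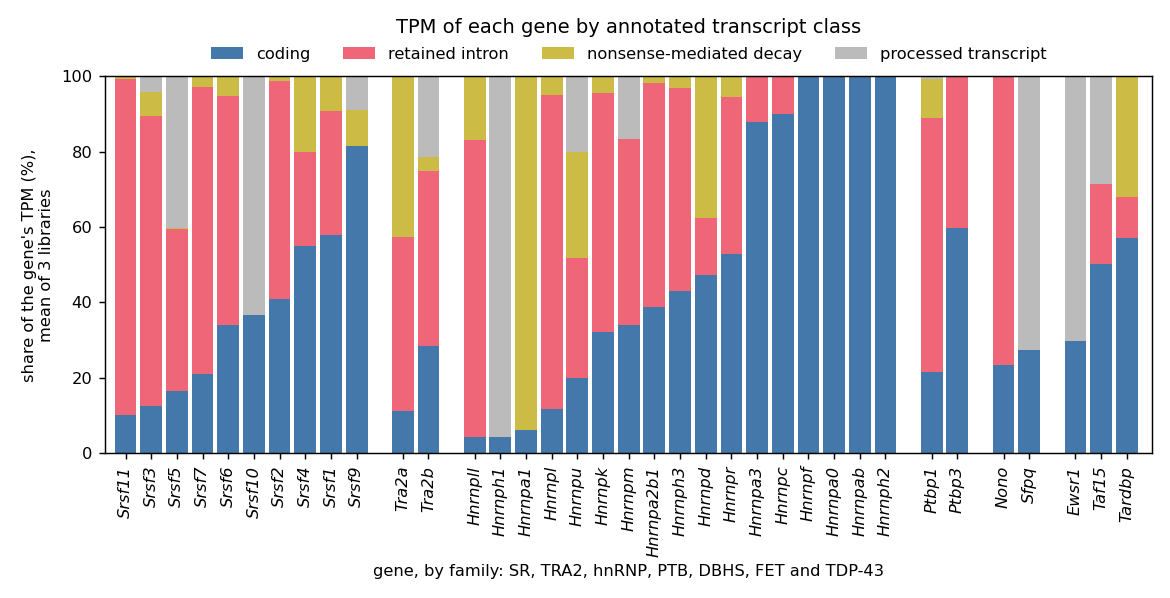
Share of each gene's TPM (%, mean of 3 libraries) in coding, retained-intron, nonsense-mediated-decay and processed transcripts, by family and ordered by coding share. Hnrnpll, Hnrnph1 and Hnrnpa1 have coding shares of 4.20%, 4.21% and 6.10%, while 4 hnRNP genes lie wholly in coding transcripts.

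The biotype itself limits this split. In RNA of the chromatin fraction it does not tell a retained intron from one not yet spliced. No retained-intron transcript is annotated for 10 of the 36 genes (Srsf9, Srsf10, Hnrnpa0, Hnrnpa1, Hnrnpab, Hnrnpf, Hnrnph1, Hnrnph2, Sfpq and Ewsr1), so their share of 0% comes from the annotation. For 4 of them most TPM lay in processed transcripts: 95.8% ± 0.724 for Hnrnph1, 72.5% ± 5.20 for Sfpq, 70.1% ± 2.96 for Ewsr1 and 63.2% ± 1.58 for Srsf10 (SD, n = 3). The leading one of Ewsr1, Ewsr1-209 at 115, 112 and 91.6 TPM, keeps intron 9 whole, and that of Hnrnph1, Hnrnph1-204 at 63.7, 55.8 and 55.3 TPM, keeps introns 5 and 6. Transcripts with a kept intron are thus annotated under both names. A split by structure was therefore added after seeing the data. It counts transcripts with at least 50 bases outside the exons of the gene's coding transcripts. By that measure 63.3% ± 0.512 of the TPM of the 36 genes lay in such transcripts. Over 10025 detected protein-coding genes it was 46.2% ± 0.603. A coding transcript can never count, because its own exons set the measure, so this is no separate check on the coding share. Extra exons of decay and processed transcripts count as well. The value was 93.9% for Hnrnpa1, which has no retained-intron transcript, and 0% for Tardbp, which has 1.

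Of the 26 genes that have a retained-intron transcript, 11 (42.3%) held more than 50% of their TPM in that class in every library. Over 6342 detected protein-coding genes with the class the share past this threshold was 33.9%, and in the read-based tables the counts were 9 of 26 against 35.5%. The 11 were Srsf2, Srsf3, Srsf6, Srsf7, Srsf11, Hnrnpa2b1, Hnrnpk, Hnrnpl, Hnrnpll, Ptbp1 and Nono. In the read-based tables Srsf3 and Ptbp1 were not past the threshold, with means of 56.7% and 40.1%. The read-based share of these genes, 34.6%, was near that background, and no test was made of the difference in either set of tables.

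Srsf11 had the highest retained-intron share in the transcript tables of the same format as the gene tables, with 91.1%, 88.4% and 87.7% of its TPM in replicates 1, 2 and 3 (89.1% ± 1.78). Its leading transcript of the class, Srsf11-213, measured 69.9, 80.4 and 74.3 TPM, against 12.9, 11.7 and 13.2 TPM for the leading coding transcript Srsf11-201. Hnrnpl followed with 86.1%, 82.9% and 80.9% (83.3% ± 2.64), led by Hnrnpl-206 at 53.0 ± 6.35 TPM. For Hnrnpll the share was 80.5%, 76.9% and 79.3% (78.9% ± 1.85), led by Hnrnpll-207 at 16.8 ± 1.44 TPM. In each of the 3 genes every library was above 75%. The class name does not by itself show a whole kept intron. Of the 88 transcripts of the class, 29 keep an intron of the reference transcript whole. The leading transcripts of these 3 genes are not among them. Srsf11 has no such transcript, and those of Hnrnpl were at 7.08 ± 0.365 and 3.42 ± 0.742 TPM. The read-based tables gave another order, with 83.8% for Hnrnpl, 81.1% for Hnrnpll and 74.6% ± 0.710 for Srsf11.

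Srsf3, the smallest SR protein, held 74.9%, 78.8% and 77.1% (76.9% ± 1.96) in the class. In the read-based tables its share was 56.7% ± 9.23, with 29.1% in processed transcripts. Its leading transcript of the class was Srsf3-204, at 29.2 ± 2.72 TPM. Srsf7, an SR protein that also acts in RNA export, held 76.4%, 75.7% and 76.5% (76.2% ± 0.468), led by Srsf7-207 at 18.1 ± 2.93 TPM. Nono held 76.6%, 79.0% and 73.8% (76.5% ± 2.59), led by Nono-205 at 46.8, 32.6 and 25.5 TPM, highest in replicate 1. Srsf3-204 and Srsf7-207 keep an intron of the reference transcript whole, and Nono-205 does not. The ranges of Srsf3, Srsf7 and Nono overlapped.

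The lowest shares among the 26 genes were in hnRNPs and Tardbp. Hnrnpc, which binds U tracts and helps nucleate the hnRNP particle, held 7.71%, 12.3% and 9.62% (9.86% ± 2.28) in the class, and 5.69% ± 0.419 in the read-based tables. Tardbp held 15.5%, 9.26% and 7.33% (10.7% ± 4.29), Hnrnpa3 8.77%, 13.9% and 13.4% (12.0% ± 2.82), and Hnrnpd 16.4%, 15.8% and 13.5% (15.2% ± 1.53). The ranges of Hnrnpc, Tardbp and Hnrnpa3 overlapped. The leading transcripts of the class were Hnrnpc-208 at 5.15 ± 0.820 TPM, Hnrnpd-206 at 13.0 ± 2.77 TPM and the 1 annotated for Hnrnpa3, at 25.3 ± 2.52 TPM. Tardbp has 1 such transcript, Tardbp-225 of 370 bases, at 17.8, 9.79 and 6.79 TPM, and its read-based share was 26.4%.

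As a family, the 12 SR and TRA2 genes held 53.9% ± 1.15 of their TPM in retained-intron transcripts and the 17 hnRNP genes 43.0% ± 0.345. The difference was 10.9 ± 0.809 percentage points (SD, n = 3), positive in 3 of 3 libraries. These are shares of summed TPM, so abundant genes weigh most. The largest amounts in the class were 572 TPM for Hnrnpa2b1 among hnRNP genes, and 268 TPM for Srsf11 and 243 TPM for Srsf5 among SR genes. The class is annotated for 10 of the 12 genes and 11 of the 17, and the rest add nothing to it. Among genes with the class, median shares were 52.8% ± 1.55 for SR and TRA2 genes and 49.3% ± 7.63 for hnRNP genes. The size of the family difference also depended on the unit. In expected counts, which are not divided by transcript length, the shares were 64.2% ± 1.72 and 27.8% ± 0.262, and the difference 36.4 points. Retained-intron models of the 36 genes have a median length of 818 bases against 1737 bases for coding ones, and TPM gives a short model more weight per read. The retained-intron share fell most between TPM and counts in Ptbp3, from 40.1% to 3.08%, and in Hnrnpr, from 41.6% to 5.49%. For Hnrnpu it was 31.8% by TPM and 5.63% by counts, and its leading transcript of the class, Hnrnpu-202, has 673 bases. Srsf5 went the other way, with 43.0% by TPM and 72% by counts, and its leading Srsf5-212 has 2720 bases.

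**Figure D3:**
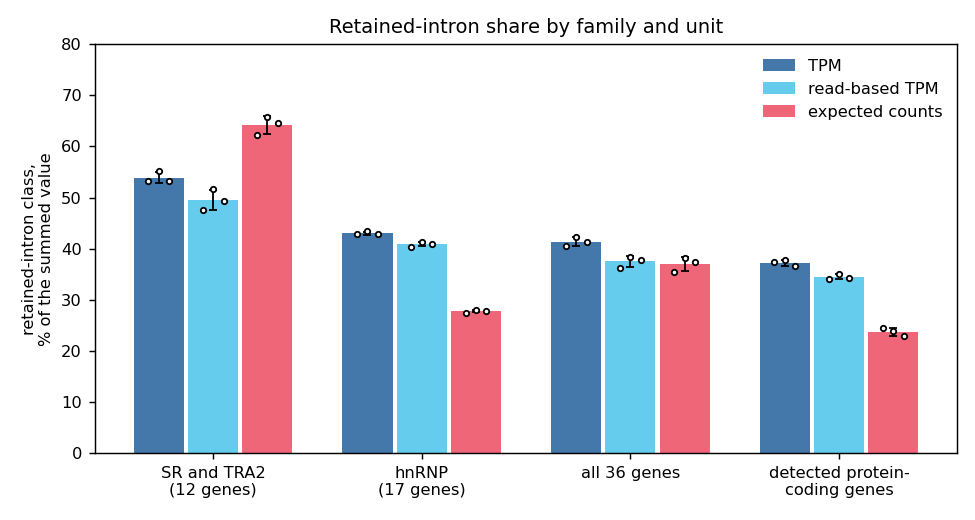
Retained-intron class as a percentage of the summed value for SR and TRA2 genes, hnRNP genes, all 36 genes and detected protein-coding genes, in TPM, read-based TPM and expected counts. Bars are means and error bars the SD of 3 libraries (open points), and the gap between the first 2 gene sets is widest in expected counts.

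Introns kept whole were counted next. Of the 310 introns of the reference transcripts, 34 in 18 genes were kept whole by at least 1 transcript outside the coding class. Their median length was 397 bases, against 782 bases for the other 276. All 34 begin with GT and end with AG, which was not counted for the other 276 and so does not set the 34 apart. For each of the 34, the TPM of transcripts that keep the intron was set against that of transcripts with exactly this intron spliced out. Transcripts that do not reach the intron, or that splice from one of its ends to another site, such as an exon inside it, were in neither sum. By mean over the libraries, the kept share ranged from 3.38% to 85.1% with a median of 29.0%, and 12 of the 34 exceeded 50%. Of these, Hnrnpk intron 12, Hnrnph3 intron 8 and Srsf3 intron 4 were below 50% in at least 1 library. Kept shares were not computed for introns of other genes, so the count has no background. In chromatin RNA, an intron that is kept and one not yet spliced cannot be told apart by these shares. With the transcripts that splice to another site added to the spliced side, an alternative added after seeing the data, the share was lower for 16 of the 34, the highest was 74.0% and 11 exceeded 50%.

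In 5 SR genes 1 intron stood above 60% when set against exact splicing. Srsf7 intron 3 was kept at 74.5% ± 0.897, Srsf3 intron 3 at 72.9% ± 1.90, Srsf5 intron 5 at 72.8% ± 9.68, Srsf6 intron 2 at 64.0% ± 3.37 and Srsf2 intron 2 at 60.4% ± 2.18 (SD, n = 3). The last lies in the untranslated part that follows the stop, and the others separate coding exons. For Srsf5 intron 5, transcripts keeping it summed to 243 TPM, most of it in Srsf5-212 at 173, 204 and 226 TPM, against 90.3 TPM spliced exactly. Srsf5-206, at 156 ± 32.6 TPM, splices from the start of this intron to an exon inside it, and with it on the spliced side the kept share was 49.5% ± 4.35. Counted in that way the shares were 72% for Srsf7 intron 3, 64.2% for Srsf3 intron 3, 60.6% for Srsf6 intron 2 and 58.0% for Srsf2 intron 2. Other introns of Srsf5 were kept at far lower shares: 3.38% for intron 4, 5.11% for intron 2 and 8.91% for intron 7. The read-based tables gave 73.9% for Srsf5 intron 5 and 74.2% for Srsf7 intron 3.

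Several of these introns also hold an extra exon. Srsf3 intron 3 holds the exon of 456 bases with the early stop of Srsf3-201, Srsf7 intron 3 the exon of 460 bases of Srsf7-203, and Srsf6 intron 2 the exon of 268 bases of Srsf6-201, at 3.35 ± 1.39 TPM. Srsf5 intron 5 holds an exon of 376 bases of the processed transcript Srsf5-206, which measured 127, 151 and 191 TPM. Srsf10 intron 2 likewise holds an exon of 390 bases of Srsf10-207, the leading processed transcript of that gene at 37.2 ± 2.32 TPM.

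Among hnRNP genes and Ewsr1, Hnrnph1 introns 5 and 6 were kept at 85.0% ± 2.30 and 85.1% ± 2.28, by the same 2 transcripts, or at 73.7% ± 4.76 and 74.0% ± 4.96 with the other splicing counted. Hnrnph3 intron 4 was kept at 72.2% ± 4.92 (64.5% with the other splicing) and Ewsr1 intron 9 at 68.6% ± 4.56. In contrast, the short introns shown or named for Hnrnpa2b1 and Hnrnpa3 were mostly spliced: intron 5 of Hnrnpa2b1 was kept at 14.3% ± 0.715 and intron 3 of Hnrnpa3, of 78 bases, at 15.7% ± 3.44. The 5′ ends were compared by a motif chosen after these values were seen. Of the 12 introns kept at over 50%, 2 (16.7%) start with GTAAG or GTGAG, against 11 of the other 22 (50%). The letters were read on the transcribed strand of the 34 annotated introns, and no test was made. The motif was not counted in other introns, so these counts describe the 34 only. Some of the 34 are kept by the same transcripts, as are Hnrnph1 introns 5 and 6, so they are not separate observations.

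Transcripts marked for decay fall into different kinds in these genes. By TPM they led in Hnrnpa1, where they held 90.8%, 93.6% and 97.2% of the gene (93.9% ± 3.21). The next highest shares were in Tra2a with 52.1%, 36.3% and 39.6% (42.7% ± 8.32), Hnrnpd with 36.5%, 37.2% and 39.0% (37.6% ± 1.28) and Tardbp with 36.2%, 29.4% and 30.4% (32.0% ± 3.63). Hnrnpu had 26.8%, 29.4% and 28.7% (28.3% ± 1.35), and Srsf4 20.1%, 19.5% and 20.7% (20.1% ± 0.573), led by Srsf4-204 at 3.62 ± 0.581 TPM. For Srsf4 the read-based share was 44.2% ± 4.13. Hnrnpa1, Tra2a, Hnrnpd, Tardbp and Hnrnpu, 5 of the 23 genes that have the class (21.7%), exceeded 25% in every library, against 9.15% of 3171 detected protein-coding genes with the class. In the read-based tables it was 4 of 23 against 15.1%, and the 4 were Hnrnpa1, Tra2a, Hnrnpd and Srsf4, with means of 22.3% for Hnrnpu and 25.1% ± 3.39 for Tardbp.

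Of the 52 transcripts marked for decay, 15 in 9 genes end in an exon that no coding transcript has, and these summed to 86.6, 73.0 and 75.3 TPM (78.3 ± 7.28, SD, n = 3). A further 10 in 5 genes end at the stop of the reference coding transcript and summed to 159, 150 and 133 TPM (147 ± 12.9). In the read-based tables the sums were 128 and 132 TPM. The remaining 27 end at another coding transcript's stop or at a stop that no coding transcript has.

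Tra2a carried the most TPM in the first kind. Tra2a-202 holds an exon of 306 bases in intron 1, with a stop after 59 codons and 7 junctions behind it, and measured 51.2, 29.3 and 36.6 TPM (39.0 ± 11.2). Transcripts that splice out intron 1 directly summed to 12.1, 17.9 and 21.5 TPM (17.2 ± 4.71). The form with the exon was the higher of the 2 in every library. In Tra2b the exon of 276 bases was used as such at only 3.86 ± 1.64 TPM, while transcripts with the same bases inside a longer exon summed to 67.9, 55.7 and 54.2 TPM and those that splice across to 13.8 ± 0.674 TPM.

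Srsf3 and Srsf7 shared the pattern of Tra2b. For Srsf3 the spliced exon was at 4.96, 6.65 and 4.71 TPM, the intron kept around it at 30.4, 31.0 and 26.1 TPM, and direct splicing at 10.6, 11.1 and 10.8 TPM. For Srsf7 the values were 1.10 ± 0.195, 23.4 ± 2.58 and 8.03 ± 1.28 TPM. In both genes the 3 forms did not overlap between libraries. In Hnrnpl the exon of 70 bases was spliced in at 30.8 ± 3.70 TPM and spliced past at 31.2 ± 6.08 TPM, which overlapped. In Hnrnpll the exon of 83 bases was at 10.7 ± 0.741 TPM against 18.1 ± 1.53 TPM. No annotated transcript of either gene holds its exon within a longer one, so an unspliced form could not be counted there. For Srsf11 the exon of 109 bases was at 2.15 ± 0.156 TPM, and at 36.5 TPM in the read-based tables, so the use of that exon was not resolved.

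**Figure D4:**
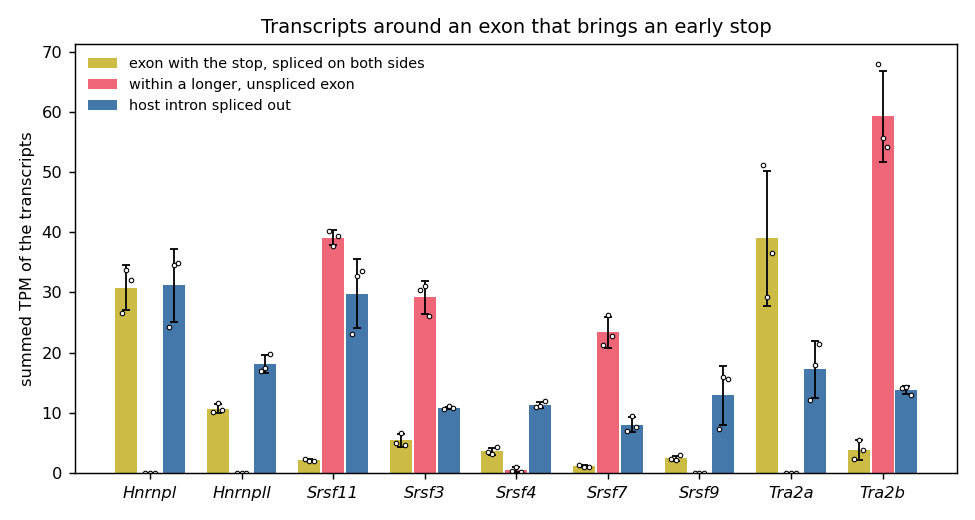
Summed TPM of transcripts that use an exon with an early stop as an exon (yellow), hold its bases in a longer exon (red), or splice out its host intron (blue), for 9 genes. Bars are means, error bars the SD and points the 3 libraries. The yellow bar is above the blue one for Tra2a, and the red bar is the highest for Srsf3, Srsf7, Srsf11 and Tra2b.

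**Figure D5:**
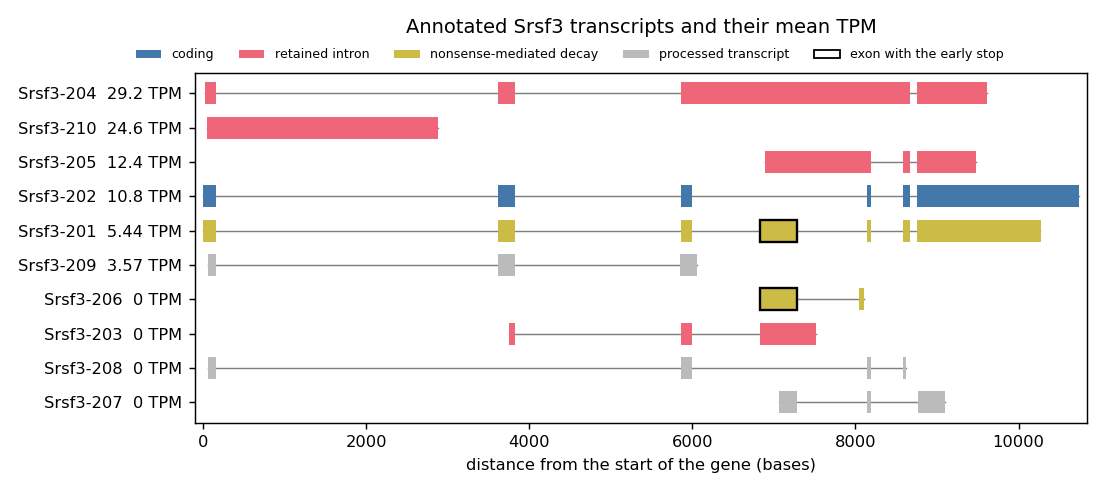
Exons of the annotated Srsf3 transcripts (boxes, coloured by class) by distance from the start of the gene, with mean TPM, sorted from high to low. The exon with the early stop is outlined, and the leading transcript, Srsf3-204 at 29.2 TPM, runs through it unspliced.

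Hnrnpa1 shows the second kind. Its 2 main transcripts, Hnrnpa1-203 at 45.8, 47.8 and 49.7 TPM and Hnrnpa1-204 at 32.8, 37.7 and 30.6 TPM, have the same coding exons as protein-coding transcripts of the gene, 320 and 373 codons long. Both are marked for decay because of 2 and 3 junctions after the normal stop. Transcripts of the coding class summed to only 7.94, 5.81 and 2.28 TPM (5.34 ± 2.86). The low coding share of Hnrnpa1 thus sits beside transcripts with the full coding frame. Hnrnpd-208 at 22.6 ± 1.43 TPM and Hnrnpa2b1-207 at 11.7 ± 4.51 TPM also end at the normal stop, each followed by 2 junctions. Tardbp-208 at 18.9 ± 4.85 TPM does so too, with 1 junction after it. Hnrnpa2b1-207 has the coding exons of a coding transcript. The annotated coding parts of Hnrnpd-208 and Tardbp-208, of 646 and 104 bases, match no coding transcript. Hnrnpu-206, the most abundant transcript marked for decay at 84.3 ± 0.993 TPM, ends after 793 codons at a stop followed by 3 junctions. No coding transcript of the gene has this stop, which Hnrnpu-208 shares.

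With edgeR's goodness-of-fit test and Benjamini-Hochberg adjustment, 0 of the 36 genes exceeded the dispersion expected at their level, against 1.12% of 14789 genes tested. At an unadjusted p under 0.05 it was 1 of 36, against 6.08%, and DESeq2 marked 0 of 36 as dispersion outliers. The 1 gene was Srsf9 (adjusted p = 0.601 by edgeR). With 3 libraries, a gene that missed the threshold is not shown to vary as little as the others. The median CV of TPM was 9.84% over the 36 genes, from 2.95% for Srsf10 to 35.2% for Srsf9, and 12.7% over 5639 detected protein-coding genes with a mean of at least 10 TPM. These sets were not matched in level, and the median of mean TPM of the 36 genes was 85.3.

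The direction of small differences between libraries depended on the scaling. By TPM 19 of the 36 genes were highest in replicate 1 (52.8%) and 18 lowest in replicate 3. Of 5639 protein-coding genes with a mean of at least 10 TPM, 32.0% were highest in replicate 1 and 47.4% lowest in replicate 3. Rescaled to protein-coding genes alone, 17 were highest in replicate 1, 3 were lowest in replicate 3 and 19 were lowest in replicate 2, against 29.5%, 23.9% and 26.2% of the 5639 genes. Ewsr1, Taf15, Tardbp, Sfpq and Nono were all highest in replicate 1, both by TPM and rescaled. The fraction of expected counts on genes annotated over ribosomal RNA repeats was 10.1% in replicate 1, 21.4% in replicate 2 and 23.6% in replicate 3. Its part in these orders was not tested.

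Other genes of the pathway were expressed beside the 36. Of 20 further SR-related genes 19 were detected, led by Rsrp1 at 1406 ± 189 TPM and the speckle scaffold Srrm2 at 469 ± 44.1 TPM, while Srsf12 was listed at 0. Of 32 other hnRNPs and RNA-binding regulators 30 were detected, led by Rbm39 at 795 ± 29.3 TPM and the helicase Ddx5 at 785 ± 94.0 TPM, with Mbnl3 lowest at 0.143 TPM. All 13 kinases and phosphatases of SR proteins were detected, from Srpk3 at 3.65 ± 1.13 TPM to Prpf4b at 151 ± 19.7 and Clk1 at 173 ± 12.2 TPM. CLK1 phosphorylates the SR tail in the nucleus.

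Of 30 core spliceosome genes 29 were detected, with Sf3b1 at 240 ± 6.93 TPM and Snrnp70 at 188 ± 13.3 TPM highest, and Snrpf lowest at 0.570 TPM. All 16 factors of nonsense-mediated decay were detected, from Smg8 at 3.16 ± 0.304 TPM to Smg9 at 43.6 ± 5.64 and Smg1, the kinase that starts the process, at 164 ± 4.55 TPM. Of 20 splicing regulators typical of neurons, muscle or epithelia 3 were detected: Ptbp2 at 53.0 ± 3.50 TPM, Celf3 at 14.0 ± 1.88 TPM and Esrp2 at 2.23 ± 0.373 TPM. Srrm4 was among 8 with no counts in the gene tables. The read-based tables gave 7 of the 20 as detected, the others being Khdrbs2 at 15.4 TPM, Srrm3 at 4.25 TPM, Nova1 at 4.02 TPM and Celf4 at 3.16 TPM. The median of mean TPM was 124 for the SR-related list and 18.5 for the core spliceosome, against 85.3 for the 36 genes and 12.1 for detected protein-coding genes.

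Limits of the reads touch some of these values. Expected counts on genes summed to between 13538605 and 19949204 per library. All 10 macrophage markers were detected, with summed levels from 765 to 1054 TPM. Of the markers of 9 other lineages 3 were detected, namely Zbtb46 at 1.13 TPM, Pecam1 at 1.70 TPM and Kdr at 5.72 TPM, highest at 10.3 TPM in replicate 1. The T cell, B cell, NK cell and neutrophil lists each summed to at most 0.840 TPM in a library. The read-based tables also gave Cd8a and Mpo as detected. In bulk RNA, fewer cells of a type and less RNA per cell cannot be told apart. Processed pseudogenes resemble some of the genes. At 90% identity over 50% of the coding sequence, 33 pseudogenes matched Hnrnpa3 and summed to 104 TPM, against 192 TPM in its coding transcripts. For Hnrnpa1 12 pseudogenes summed to 17.2 TPM, above its coding transcripts at 5.34 TPM. For Srsf7 1 pseudogene was at 4.47 TPM against 8.03 TPM in its coding transcripts. The level of Hnrnpa3 and the coding classes of Hnrnpa1 and Srsf7, with the kept share of Srsf7 intron 3, are therefore uncertain. Strand of counting is not given in the sources used here. Srsf2 lies wholly within the span of Mettl23 (12.0 TPM) and overlaps Mfsd11 (55.5 TPM), both on the other strand, as Hnrnpab overlaps Phykpl (34.5 TPM) and Hnrnph3 overlaps Rufy2 (24.2 TPM). On the same strand, where no strand setting separates them, Sfpq overlaps Gm12940 (83.1 TPM over a shared 3283 bases) and Srsf4 overlaps A930004J17Rik, which had 1180 expected counts against 630 for Srsf4. Likewise on the same strand, Srsf11 overlaps Gm43362 (11.0 TPM over 2470 bases) and Hnrnpm overlaps March2 (16.3 TPM over 1169 bases). The levels of these genes are uncertain to that extent.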

How the data were processed

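Total RNA of the chromatin fraction had been sequenced in 3 libraries of 1 group. For each, the authors deposited a gene table and a transcript table of expected counts and TPM on mm10 with GENCODE M21, per the file headers, with columns as RSEM writes them. They deposited a further transcript table of estimated counts and TPM made from the reads, with columns as kallisto writes them. Aligner, quantifier versions and strand handling: not given in the sources used here. The deposited interval bounds of TPM were not used.

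Members and lists were chosen with earlier results of these data known. Symbols were read from the read-based tables and joined by gene identifier (Python 3.11.15, pandas 2.3.3, numpy 2.4.6). Class shares are the TPM of a biotype divided by that of all transcripts. Sequences and exon structures came from GENCODE M21 transcripts. Pseudogene copies were searched with BLAST 2.17.0. Expected counts were rounded for edgeR 4.0.16 (R 4.3.3): filterByExpr, TMM, an intercept-only fit with trended dispersion and a chi-square test of the deviance. This step was tested on simulated counts. DESeq2 1.42.0 gave alternatives.

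Genes named in full, by a rule: the 8 highest and 4 lowest mean TPM, the 6 highest and 4 lowest retained-intron shares, the 6 highest decay shares, any gene called by the spread test, and those differing over 2-fold between tables. Of each further list the 2 highest and the lowest gene are named. The listed symbol Srsf8 matched no gene and was not analysed here. Means are given with the SD over 3 libraries. The SD holds counting error together with other differences between libraries, and depth was 13538605, 19949204 and 18224466 expected counts. Kept-intron shares, stop kinds, the split by structure and the pseudogene search were added after seeing the data. No protein sequence or genome sequence was used here.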

Additional observations from a re-analysis of the deposited data

How the results depend on the processing

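All 36 genes were detected in either set of tables and without any replicate, and 35 at a threshold of 5 TPM. The median log2 level, 6.40, was 6.61 in the read-based tables, 8.17 rescaled to protein-coding genes and 4.90 for coding transcripts alone, an alternative added after seeing the data. The retained-intron share, 41.4%, was 37.5% in the read-based tables, 37.0% in expected counts and 34.9% as a median over genes. Over the detected protein-coding genes, at 37.2% by TPM, it was 34.5%, 23.8% and 25.8% under these 3 alternatives. The decay share, 6.49%, was 7.03%, 7.08% and 1.81% under the same 3, against 5.36%, 3.98% and 0% over the detected genes. The coding share, 32.3%, was 44.8% in expected counts and 36.4% as a median over genes. Over the detected genes, at 49.5% by TPM, it was 68.7% and 56.8%. The added split by structure gave 63.3%, but it is a different measure that also takes in decay and processed transcripts. The difference between SR with TRA2 genes and hnRNP genes, 10.9 points, was 8.62 in the read-based tables and 36.4 in expected counts. It was 31.2 as a difference of medians over genes and 18.1 by the split by structure. Those medians include genes without an annotated retained-intron transcript. With only the 10 of 12 and 11 of 17 genes that have the class, the medians were 52.8% ± 1.55 and 49.3% ± 7.63. TPM divides by transcript length and expected counts do not; otherwise the cause was not tested. Leaving out each replicate gave median levels of 6.38 to 6.42, retained-intron shares of 40.9% to 41.8%, decay shares of 6.33% to 6.58%, coding shares of 31.9% to 32.7% and differences of 10.5 to 11.2 points. The spread test called 0 of the 36 genes in all 8 alternatives, by edgeR or DESeq2. Over all genes it called 166, against 221 without a filter, 273 with read-based counts, 61 by DESeq2 and 56 to 76 without 1 replicate. Between the sets of tables, 25 of 36 mean levels and 20 of 26 retained-intron shares moved by more than the SD between libraries, 3 of each by over 1.5 times (levels of Ptbp3, Ptbp1 and Hnrnpa3, shares of Tardbp, Hnrnpc and Ptbp1). Introns kept at over 50% by mean numbered 12, or 11 with other splicing counted and 11 in the read-based tables, without a background over other genes. No paired analysis was possible because there is 1 group.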
